A study of Mus musculus with 6 samples.

Results

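Mitochondrial ribosomal proteins were taken as the probe sets that the array's annotation pairs with exactly 1 gene whose symbol begins with Mrpl or Mrps followed by a digit. The rule found 127 probe sets for 74 genes, among 12393 genes measured: 47 genes carry names of the large subunit (88 probe sets) and 27 carry names of the small subunit (39 probe sets). Where several probe sets read a gene, the brightest over the 6 arrays stood for it. The series holds liver RNA from 3 transgenic and 3 wild-type mice taken at postnatal day 9, hybridised to an array each and called biological replicates in the labels. The transgenic mice are labelled as overexpressing TFEB, a transcription factor that activates lysosomal and autophagy genes. They were bred by crossing a conditional Tcfeb (Tfeb) line with the Alb-Cre line, in which the albumin promoter drives Cre recombinase, so the label restricts the overexpression to liver, and groups here are those of the labels. The labels call the controls wild type, and whether they carried Cre or the conditional allele alone is not stated in the sources used here. Values are log2 expression, and differences are given as transgenic minus wild type, followed by limma's standard error (SE). A gene counts as changed where its limma p, adjusted over all 12393 genes by the Benjamini-Hochberg method, is at most 0.05. With 3 arrays a group, precision is limited by their number.

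Mitochondria translate their own small genome with a dedicated ribosome, the mitoribosome, which makes the mitochondrially encoded core subunits of the respiratory chain and the ATP synthase. Its ribosomal RNAs come from mitochondrial DNA, whereas its proteins are encoded in the nucleus, made in the cytosol and imported. Many of these proteins descend from bacterial ribosomal proteins and others were added during the evolution of mitochondria. The small subunit reads the messenger RNA and the large subunit joins the amino acids. In hepatocytes the organelles hold fatty acid oxidation and parts of the urea cycle and of gluconeogenesis besides respiration.

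In livers labelled transgenic for TFEB 28 of the 74 mitochondrial ribosomal protein genes were higher than in wild-type livers and 8 were lower, by modest amounts. Among large subunit genes 17 of 47 were higher, against 19.9% of all genes, and 8 were lower, against 20.4% of all genes. Among small subunit genes 11 of 27 were higher and 0 lower; at an unadjusted limma p under 0.05 the counts were 12 and 1, and the 1 was Mrps7. The largest rise was that of Mrps6, at 2.09-fold, and it was the only member past 2-fold, a change that 5.18% of all genes passed in either direction. The deepest fall past the threshold was that of Mrpl14, to 72.1% of its wild-type level. As a share, 37.8% of the members were higher and 10.8% lower, while 40.3% of all genes were called in either direction. With genes ordered by mean level into 10 equal groups, all members but Mrpl33 lay in groups 6 to 10, counted from the dimmest. Of all genes in groups 6 to 10, 29.5% were higher and 20.9% lower. The 2 groups of arrays did not overlap for 22 large subunit genes that read higher and 11 that read lower, and for 15 and 3 small subunit genes. Over all genes this held for 25.6% in the higher and 28.1% in the lower direction. Fewer cells of a type and less RNA per cell cannot be told apart in these whole-liver samples.

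**Figure D1:**
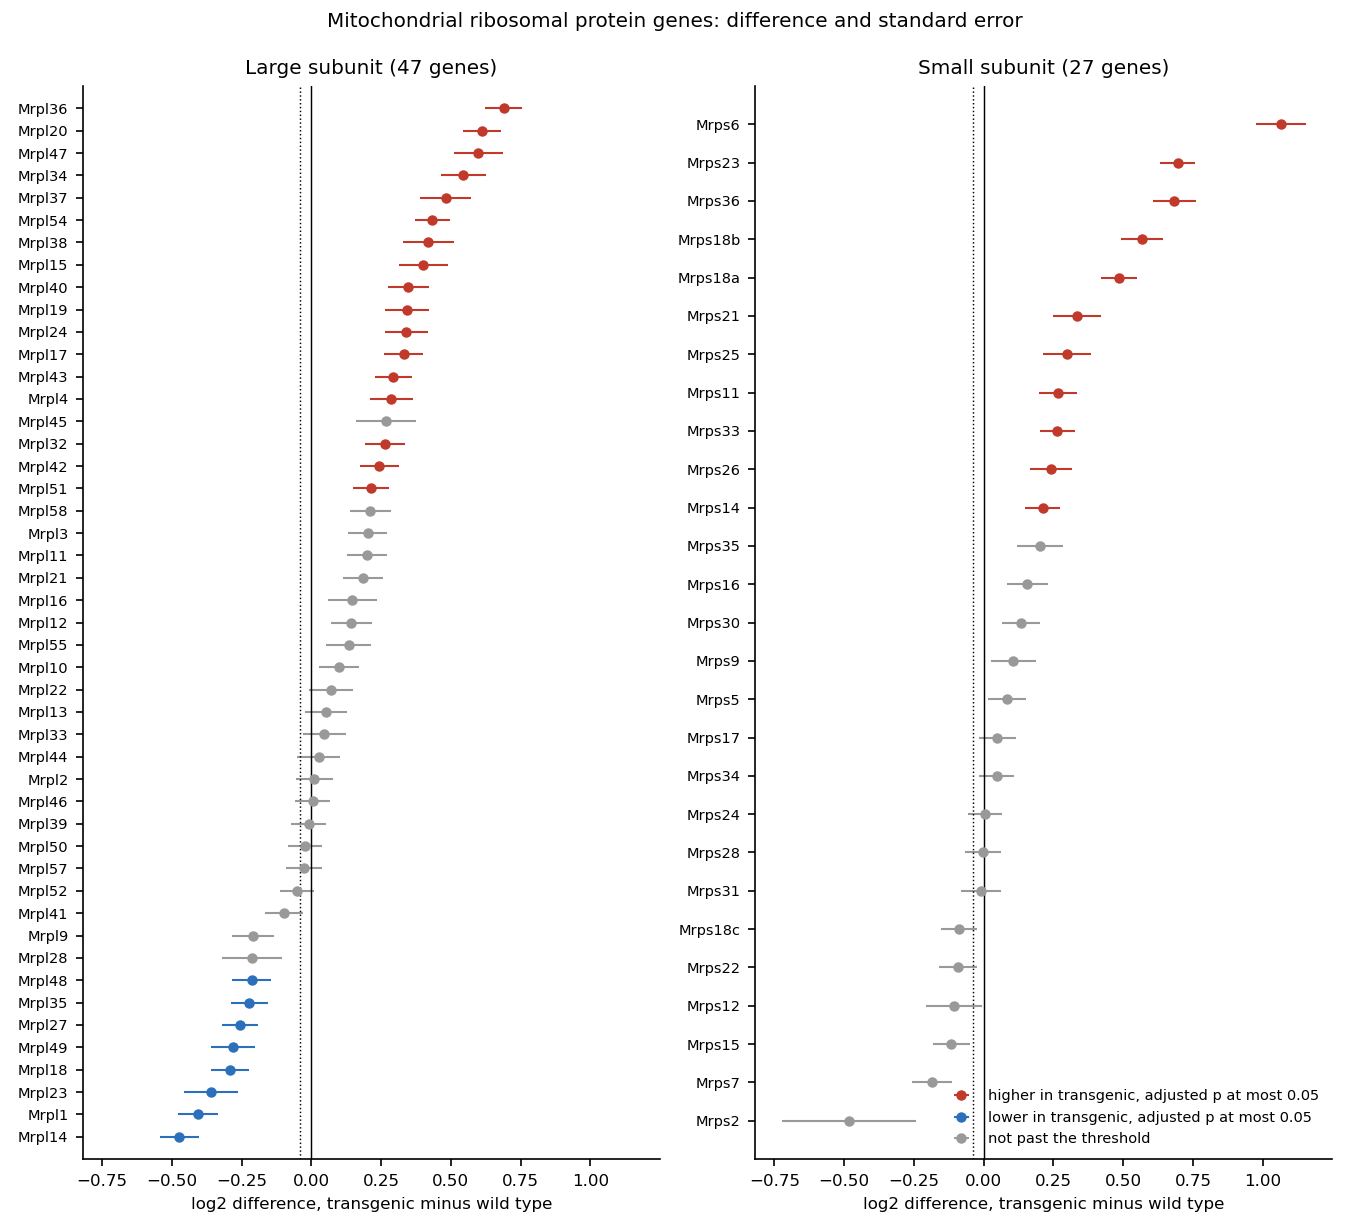
Log2 difference (transgenic minus wild type) of each of the 47 large and 27 small subunit genes on the horizontal axis, ordered from the highest to the lowest, with the SE of the limma fit as a bar. Red points are higher and blue points lower at an adjusted p of at most 0.05, grey points did not pass, and the dotted line marks the median of all genes at -0.04. Large subunit points run from 0.69 to -0.47 with 17 red and 8 blue, and small subunit points from 1.06 to -0.48 with 11 red and 0 blue. Scaling to the bacterial controls would move all points to the right by 0.37, past 0 for 6 of the 8 blue ones.

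All directions are relative to the deposited scale, which equalises the arrays. The 14 probe sets for bacterial RNAs spiked into each hybridisation read lower on the transgenic arrays, by a median of -0.37 (range -0.49 to -0.25), and each was lower on every transgenic array than on any wild-type array. The shift between groups also depended on brightness: with genes ordered by mean level into 10 equal groups, the median difference ran from -0.16 in the second and the third dimmest to 0.09 in the eighth. One transgenic array, replicate 1, had a male pattern, with Xist at 5.58 against 13.03 to 13.19 elsewhere. Tfeb itself read 6.52, 6.61 and 6.36 on the transgenic arrays and 6.91, 6.63 and 6.58 on the wild-type arrays, a difference of -0.21 (SE 0.11, adjusted p = 0.168). The labels do not describe the construct, so this probe set checks nothing about the overexpression.

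Mrps6, the counterpart of the bacterial small subunit protein S6, had the largest rise of the family. It read 9.31, 9.62 and 9.55 on the transgenic arrays, against 8.44, 8.43 and 8.42 on the wild-type arrays. The groups did not overlap, and the means were 9.49 ± 0.16 and 8.43 ± 0.01 (SD, n = 3 each), a difference of 1.06 (SE 0.09, adjusted p = 0.000106). Mrps23, a small subunit protein without a bacterial counterpart, read 8.63, 8.67 and 8.70 on the transgenic arrays, against 8.0, 7.95 and 7.96 on the wild-type arrays. Its rise of 0.70 (SE 0.06, adjusted p = 0.000137) was about as large as that of Mrps36, at 0.68 (SE 0.08, adjusted p = 0.000395). Mrps36 read 9.5, 9.52 and 9.44 in transgenic livers, against 8.69, 8.90 and 8.83 in wild-type livers. It is named as a ribosomal protein, but is known as a component of the 2-oxoglutarate dehydrogenase complex of the citric acid cycle.

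The mammalian counterparts of bacterial S18 are Mrps18a, Mrps18b and Mrps18c, and structures place Mrps18a in the large subunit. Mrps18b read 9.58, 9.73 and 9.54 on the transgenic arrays, against 9.10, 9.02 and 9.02 on the wild-type arrays, a rise of 0.57 (SE 0.07). Mrps18a read 9.30, 9.19 and 9.24 on the transgenic arrays, against 8.77, 8.78 and 8.72 on the wild-type arrays, a rise of 0.49 (SE 0.06). Neither gene's groups overlapped. Mrps18c, whose groups did not overlap either but lay the other way round, did not pass the threshold, at -0.09 (SE 0.06, adjusted p = 0.307). Mrps21, the counterpart of bacterial S21, read 9.5, 9.54 and 9.40 in transgenic livers and 9.25, 9.19 and 8.99 in wild-type livers, a rise of 0.33 (SE 0.09). The lowest transgenic and the highest wild-type array of Mrps21 lay close together without overlapping, and its call was lost without transgenic replicate 1 (adjusted p = 0.0537) or replicate 2 (adjusted p = 0.0665). The other small subunit genes that rose were Mrps25 by 0.30, Mrps11 by 0.27, Mrps33 by 0.26, Mrps26 by 0.24 and Mrps14 by 0.21. The call of Mrps25 was lost without transgenic replicates 1 or 3 or wild-type replicates 2 or 3 (adjusted p between 0.0623 and 0.0913), and that of Mrps26 without any array but transgenic replicate 1 (between 0.0628 and 0.12).

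Mrps14, the counterpart of bacterial S14, was the brightest small subunit gene and Mrps11, the counterpart of S11, the dimmest. Mrps14 read 11.13, 11.14 and 11.08 on the transgenic arrays, against 10.94, 10.87 and 10.91 on the wild-type arrays. Mrps11 read 7.94, 8.01 and 7.91 on the transgenic arrays, against 7.75, 7.69 and 7.62 on the wild-type arrays. Both rose on non-overlapping groups by similar amounts at opposite ends of the range, but neither call held with each array left out. That of Mrps14 (adjusted p = 0.0301) was lost without transgenic replicates 1 (0.0778), 2 (0.092) or 3 (0.0565) and without wild-type replicates 2 (0.0922) or 3 (0.0707). That of Mrps11 (adjusted p = 0.0174) was lost without transgenic replicate 2 (0.0654) or wild-type replicate 3 (0.0566). These are limma adjusted p values with the array named left out. On their dimmer probe sets Mrps14 read 0.01 and Mrps11 -0.10, neither called. Of the 16 small subunit genes that did not pass, differences ran from -0.48 to 0.20. The value of -0.48 is that of Mrps2, the counterpart of bacterial S2, which is named here after its values were seen. Mrps2 read 8.73 on each of the 3 transgenic arrays, but 8.57, 9.5 and 9.58 on the wild-type arrays (SE 0.24, adjusted p = 0.148). The groups overlapped through wild-type replicate 1, and without that array Mrps2 was called lower.

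In the large subunit the strongest rise was that of Mrpl36, the counterpart of the small bacterial protein L36. It read 9.25, 9.22 and 9.16 on the transgenic arrays, against 8.49, 8.59 and 8.49 on the wild-type arrays. The groups lay well apart, with means of 9.21 ± 0.05 and 8.52 ± 0.06 (SD, n = 3 each) and a difference of 0.69 (SE 0.07, adjusted p = 0.000199). Mrpl20, the counterpart of L20, which in bacteria binds ribosomal RNA early in assembly, read 10.14, 10.23 and 10.16 on the transgenic arrays, against 9.52, 9.64 and 9.53 on the wild-type arrays. Mrpl47, the counterpart of L29, read 9.48, 9.70 and 9.67 on the transgenic arrays, against 9.13, 8.99 and 8.93 on the wild-type arrays. Their rises were 0.61 (SE 0.07, adjusted p = 0.000395) and 0.60 (SE 0.09, adjusted p = 0.00152), again on groups that did not overlap.

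Mrpl34, the counterpart of L34, read 9.55, 9.76 and 9.56 on the transgenic arrays, against 9.11, 9.11 and 9.02 on the wild-type arrays, a rise of 0.54 (SE 0.08). Mrpl37 and Mrpl54 have no bacterial counterpart. Mrpl37 read 8.29, 8.24 and 8.40 on the transgenic arrays, against 7.99, 7.74 and 7.74 on the wild-type arrays, a rise of 0.48 (SE 0.09). Mrpl54 read 9.10, 9.0 and 9.04 on the transgenic arrays, against 8.61, 8.59 and 8.64 on the wild-type arrays, a rise of 0.43 (SE 0.06). In each of the 3 every transgenic array was above every wild-type array, with the smallest gap for Mrpl37, whose wild-type replicate 1 was the highest of its group. The other 11 large subunit genes that rose did so by less: Mrpl38 by 0.42, Mrpl15 by 0.40, Mrpl40 by 0.35, Mrpl19 by 0.34, Mrpl24 by 0.34, Mrpl17 by 0.33, Mrpl43 by 0.29, Mrpl4 by 0.29, Mrpl32 by 0.26, Mrpl42 by 0.24 and Mrpl51 by 0.21. Mrpl15, Mrpl19, Mrpl37 and Mrpl38 rest on probe sets marked for possible cross-hybridisation, and Mrpl38 read -0.09 (adjusted p = 0.343) on its other probe set. Mrpl4, the counterpart of L4, lost its call without transgenic replicates 1 (adjusted p = 0.0608) or 2 (0.0711) or wild-type replicate 3 (0.0552). Mrpl32 lost its call without transgenic replicates 2 (0.0782) or 3 (0.0698) or wild-type replicate 1 (0.0515). Mrpl42 and Mrpl51 lost theirs without transgenic replicates 2 or 3 or wild-type replicates 2 or 3, with adjusted p between 0.0576 and 0.0808 for Mrpl42 and between 0.0742 and 0.095 for Mrpl51.

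The 8 fallers called on the deposited scale were large subunit genes. Scaling the arrays to the bacterial controls adds 0.37 to the difference of every gene, so that by construction the 6 falls smaller than this turn above 0. Mrpl14, the counterpart of L14 at the face that meets the small subunit, read 9.45, 9.41 and 9.39 on the transgenic arrays, against 9.81, 9.98 and 9.87 on the wild-type arrays. Its means were 9.42 ± 0.03 and 9.89 ± 0.09 (SD, n = 3 each), a difference of -0.47 (SE 0.07, adjusted p = 0.00163) on groups that did not overlap. Mrpl1, the counterpart of the L1 stalk protein, which in bacteria helps release used transfer RNA, read 7.96, 7.92 and 7.93 on the transgenic arrays, against 8.24, 8.38 and 8.41 on the wild-type arrays. Its groups did not overlap either, and it fell by 0.41 (SE 0.07, adjusted p = 0.00341), but its other 2 probe sets read -0.03 and -0.01. With that amount added, Mrpl14 and Mrpl1 read -0.10 and -0.04, and neither was called.

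Mrpl23, the counterpart of L23 at the exit of the peptide tunnel, read 10.31, 10.39 and 10.45 on the transgenic arrays, against 10.93, 10.70 and 10.60 on the wild-type arrays. Mrpl18, the counterpart of L18, read 9.81, 9.85 and 9.76 on the transgenic arrays, against 10.07, 10.05 and 10.17 on the wild-type arrays. The 2 genes fell by 0.36 (SE 0.10) and 0.29 (SE 0.07) on groups that did not overlap. Mrpl49, which has no bacterial counterpart, read 8.17, 8.31 and 8.21 on the transgenic arrays, against 8.62, 8.46 and 8.45 on the wild-type arrays. Mrpl27, whose bacterial counterpart L27 reaches the peptidyl transferase centre, read 10.26, 10.16 and 10.23 on the transgenic arrays, against 10.44, 10.51 and 10.45 on the wild-type arrays. They fell by 0.28 (SE 0.08) and 0.26 (SE 0.07). Their groups did not overlap, although the lowest wild-type array of Mrpl49, at 8.45, lay close to its highest transgenic array, at 8.31. The other probe set of Mrpl49, nearly as bright, read -0.07 and was not called (limma adjusted p = 0.502 over all probe sets). The remaining fallers were Mrpl35, by 0.22, and Mrpl48, by 0.21. With single arrays left out, Mrpl14, Mrpl1 and Mrpl18 were called in each of the 6 fits. Mrpl23 lost its call without transgenic replicate 1 (adjusted p = 0.0647) or 2 (0.0557), and Mrpl27 without transgenic replicate 2 (0.0662) or wild-type replicate 2 (0.0588). Mrpl49 lost its call without transgenic replicate 1 (adjusted p = 0.0723), transgenic replicate 3 (0.0693) or wild-type replicate 1 (0.0525). Mrpl35 lost its call without any array but wild-type replicate 3 (adjusted p between 0.0533 and 0.0884) and Mrpl48 without any of the 6 (between 0.0554 and 0.134).

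The 22 large subunit genes that did not pass had differences between -0.21 and 0.27. Among them were the brightest and the dimmest genes of the large subunit. Mrpl39, which has no bacterial counterpart, read 11.36, 11.43 and 11.48 on the transgenic arrays and 11.43, 11.43 and 11.44 on the wild-type arrays. Mrpl33, the counterpart of L33, read 6.93, 6.85 and 6.75 on the transgenic arrays and 6.87, 6.73 and 6.8 on the wild-type arrays. Both overlapped, with differences of -0.01 (SE 0.06) and 0.05 (SE 0.08).

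**Figure D2:**
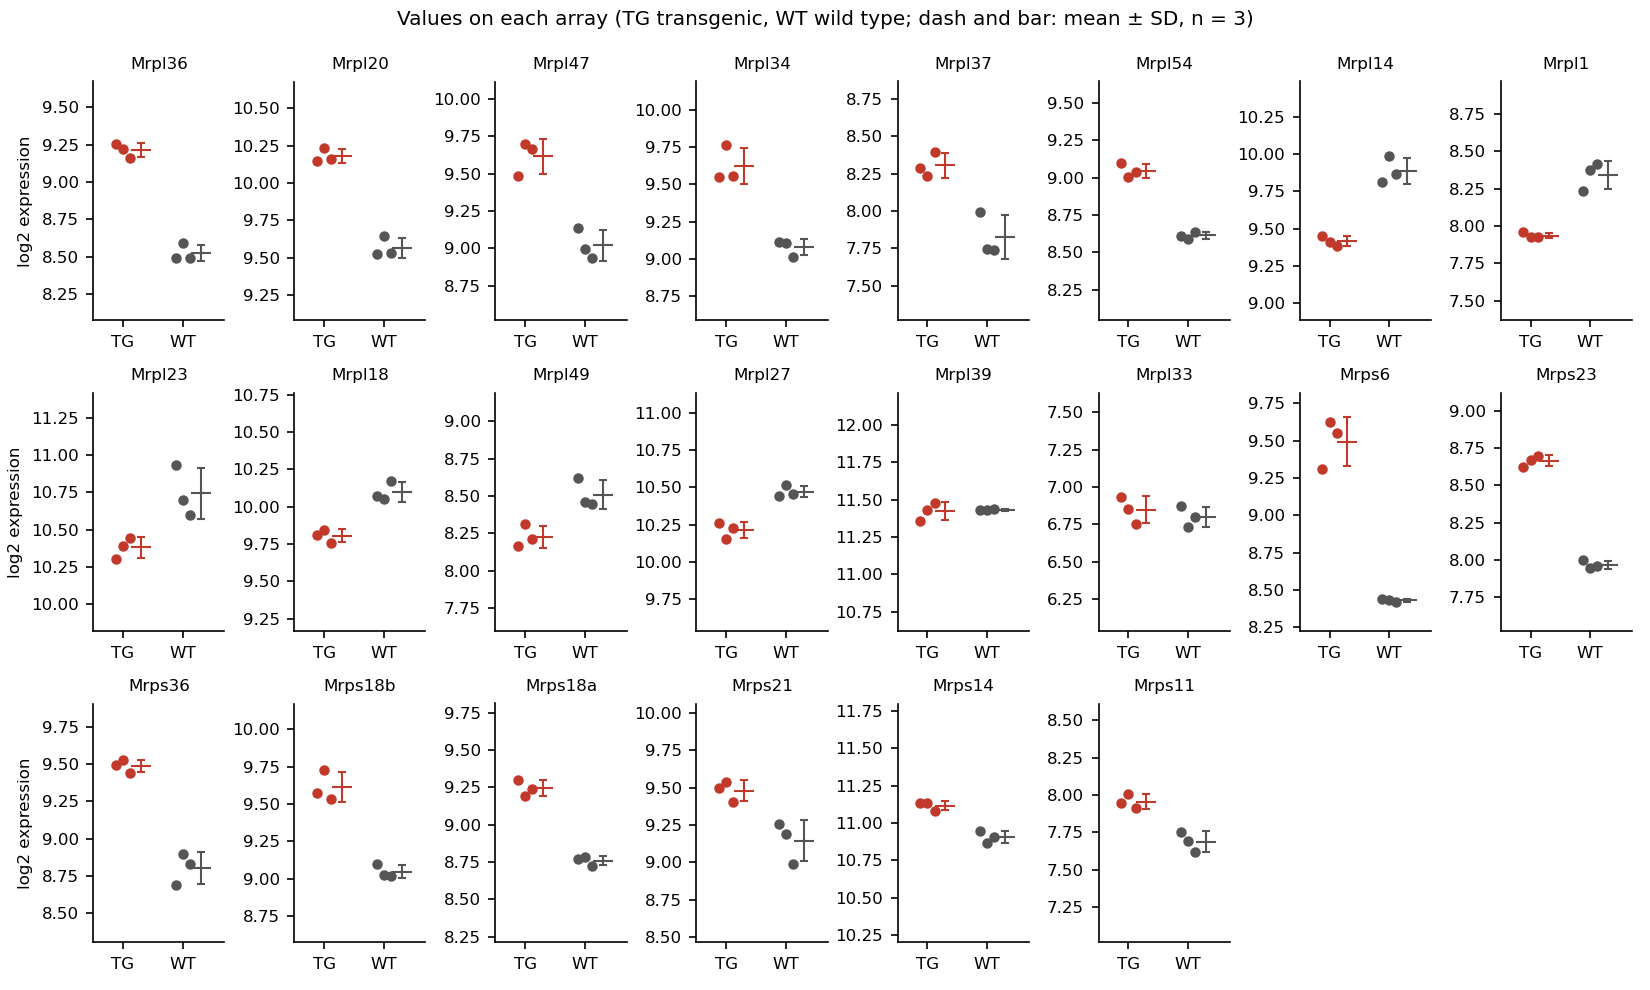
Log2 expression on each array for the 22 members described with all their values, 1 panel per gene, with transgenic (TG, red) arrays left of wild-type (WT, grey) arrays and the mean ± SD (n = 3) beside the points. Each panel spans the same number of log2 units around its own level. In Mrps6 the transgenic points lie between 9.31 and 9.62, above wild-type points at 8.42 to 8.44. In Mrpl14 they lie between 9.39 and 9.45, below wild-type points at 9.81 to 9.98, a difference that reads -0.10 with the arrays scaled to the bacterial controls.

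The promoters of the largest rise in each subunit and of the deepest fall past the threshold are given to show what lies before genes of 1 family that went different ways. The windows are RefSeq's, on build GRCm38.p6, and the 250 bases before each annotated start are printed on the strand of the gene, with matches to the motifs named below in capitals. The Mrps6 window is chr16:92058086-92058335 (plus strand), that of Mrpl36 chr13:73330759-73331008 (plus strand) and that of Mrpl14 chr17:45686099-45686348 (plus strand).
Mrps6: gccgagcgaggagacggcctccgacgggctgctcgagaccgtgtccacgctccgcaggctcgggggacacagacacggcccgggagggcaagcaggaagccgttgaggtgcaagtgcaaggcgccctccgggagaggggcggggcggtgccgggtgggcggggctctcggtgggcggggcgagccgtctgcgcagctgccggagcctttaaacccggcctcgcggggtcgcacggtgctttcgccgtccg
Mrpl36: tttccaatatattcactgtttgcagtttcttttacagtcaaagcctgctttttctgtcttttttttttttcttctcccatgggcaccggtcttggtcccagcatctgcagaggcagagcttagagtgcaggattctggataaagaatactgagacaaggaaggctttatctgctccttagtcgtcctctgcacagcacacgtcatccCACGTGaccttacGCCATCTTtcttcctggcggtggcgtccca
Mrpl14: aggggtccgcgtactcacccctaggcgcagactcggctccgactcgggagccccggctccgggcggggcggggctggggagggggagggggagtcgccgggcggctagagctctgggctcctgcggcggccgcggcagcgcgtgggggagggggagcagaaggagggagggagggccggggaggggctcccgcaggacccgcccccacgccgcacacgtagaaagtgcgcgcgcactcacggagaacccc
The Mrps6 and Mrpl14 windows, 1 before a gene that rose and 1 before a gene that fell, were both rich in G and C, at 74.4% and 77.2%, and held none of the motifs. The Mrpl36 window was 47.2% G and C. It held the E-box CACGTG, which TFEB and related factors bind, 43 bases before the start, and the YY1 motif AAGATGGC on the opposite strand.

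Motifs were searched on both strands in the window of 250 bases before to 50 bases after the start, which was present for 65 of the 74 genes and, over the table, for 27025 genes. These 27025 are what all genes means for the motifs, and they are not limited to the 12393 genes measured. The E-box CACGTG was in 5 members (7.69%: Mrpl2, Mrpl20, Mrpl36, Mrpl37 and Mrps18c), against 7.24% of all genes. It was in 3 of the 23 members that rose, 0 of the 8 that fell and 2 of the 34 that did not pass. The longer TFEB motif TCACGTGA, which contains the E-box, was in 2 members (Mrpl2 and Mrps18c), neither of them called, or 3.08% against 1.01% of all genes. The motif CCGGAAG of ETS factors such as GABP was in 23 members (35.4% against 9.12%). YY1's AAGATGGC was in 11 members (16.9% against 2.88%), and NRF1's GCATGCGC in 8 (12.3% against 2.80%). TGACGTCA, bound by CREB, was in 2 members (3.08% against 1.88%), and TCAAGGTCA, bound by ERR receptors, in 0 (against 0.407%). The ETS motif was in 10 of the 23 members that rose, 2 of the 8 that fell and 11 of the 34 that did not pass. In the same order, the YY1 motif was in 6, 2 and 3, the NRF1 motif in 3, 0 and 5, and the CREB motif in 0, 1 and 1. Whether a motif went with the direction of a call was not tested. Member windows had a median G and C content of 58.4%, against 52.0% for all windows, and a match describes letters only. They held a median of 16 CpG (a C followed by a G), against 6 in all windows. The ETS, NRF1, CREB and E-box motifs contain a CpG, and shares among windows of like CpG content were not tested.

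Large and small subunit members shifted by similar amounts: the median difference was 0.14 over the 47 large and 0.13 over the 27 small subunit genes, against -0.04 over all genes. On single arrays, the large subunit members deviated from their own means by a median of 0.07, 0.10 and 0.03 on the transgenic arrays, against -0.04, -0.06 and -0.09 on the wild-type arrays. For the small subunit the median deviations were 0.05, 0.08 and 0.07 on the transgenic arrays, against -0.05, -0.06 and -0.11 on the wild-type arrays. In both subunits the 3 transgenic arrays thus stood above the 3 wild-type arrays. The median large subunit level exceeded the median small subunit level by 0.38, 0.37 and 0.29 on the transgenic arrays and by 0.23, 0.33 and 0.24 on the wild-type arrays, which overlapped. The subunits differed in their counts, 8 of 47 against 0 of 27 lower, but whether this exceeds chance was not tested.

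Members are bright, and bright genes moved slightly upward on these arrays. All but 1 member (Mrpl33) lay in the brighter 5 of the 10 groups, in which 29.5% of the genes were higher, 20.9% were lower and the median difference was 0.06. Each member was also given the median difference of all genes in its brightness group. The median of these values over members was 0.06 for each subunit, below the members' own medians of 0.14 and 0.13. Within the family the shift lay among the less bright members: the median member difference was 0.30 in the seventh and 0.31 in the eighth group, but 0.02 in the ninth and 0.05 in the tenth, which hold most members. In the eighth group 5 of 9 large and 6 of 9 small subunit genes rose and 0 fell, whereas in the ninth 6 of 21 and 1 of 9 rose and 4 large subunit genes fell. Of all genes in the eighth group 31.7% were higher and 17.9% lower, and in the ninth 29.1% and 21.1%, so the large subunit counts in the ninth were near those of all genes there.

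**Figure D3:**
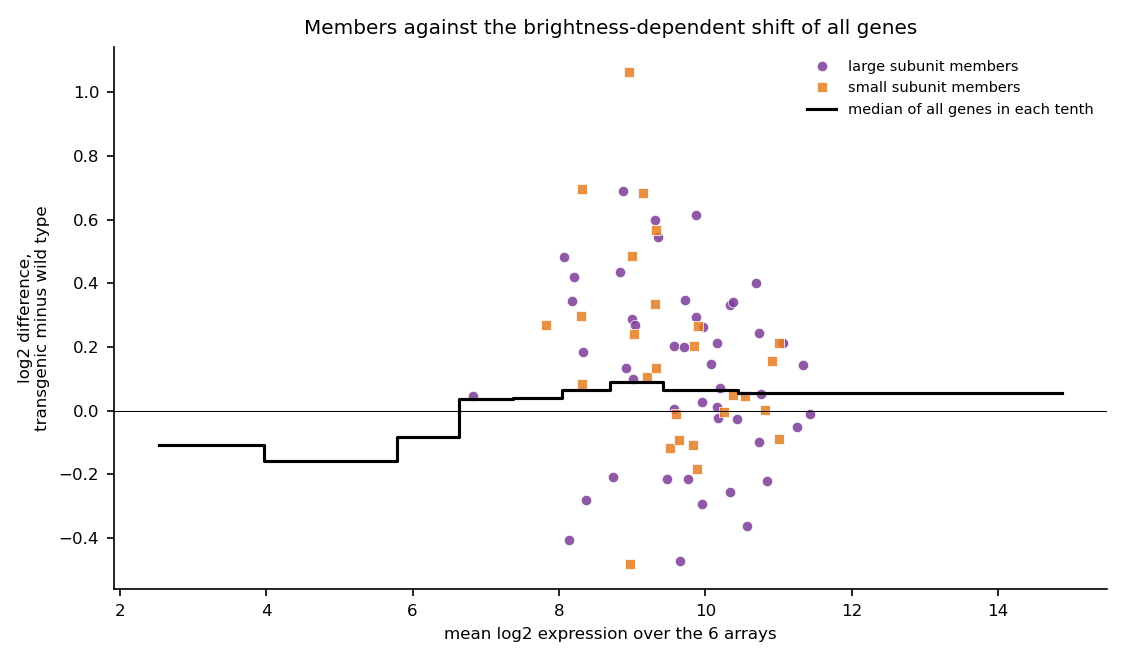
Log2 difference (transgenic minus wild type) of each member against its mean log2 expression over the 6 arrays, with large subunit genes as purple circles and small subunit genes as orange squares. The black steps give the median of all genes in each of 10 brightness groups, from -0.16 to 0.09. Members near a level of 9 lie mostly above the steps, while those above 9.5 lie on both sides of them.

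Centring each array within the 10 brightness groups removed the shift and part of the calls. Large subunit genes then counted 13 higher and 9 lower and small subunit genes 7 higher and 1 lower (Mrps7), while 17.8% of all genes were higher and 17.4% lower. The medians fell to 0.09 and 0.05. Scaled to the bacterial controls, 37 large and 24 small subunit genes were higher and 0 lower in either subunit, while 56.6% of all genes were higher and 5.25% lower. That scaling moved the median of all genes by 0.37, to 0.33, and the subunit medians to 0.51 each. It shifts all genes alike and so leaves the distance of a subunit median from that of all genes, 0.18 and 0.17, as it was by construction. With each probe set tested on its own, 22 of 88 large subunit probe sets were higher and 11 lower, and 12 of 39 small subunit probe sets were higher and 1 lower, while 18.7% of all probe sets were higher and 17.6% lower.

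**Figure D4:**
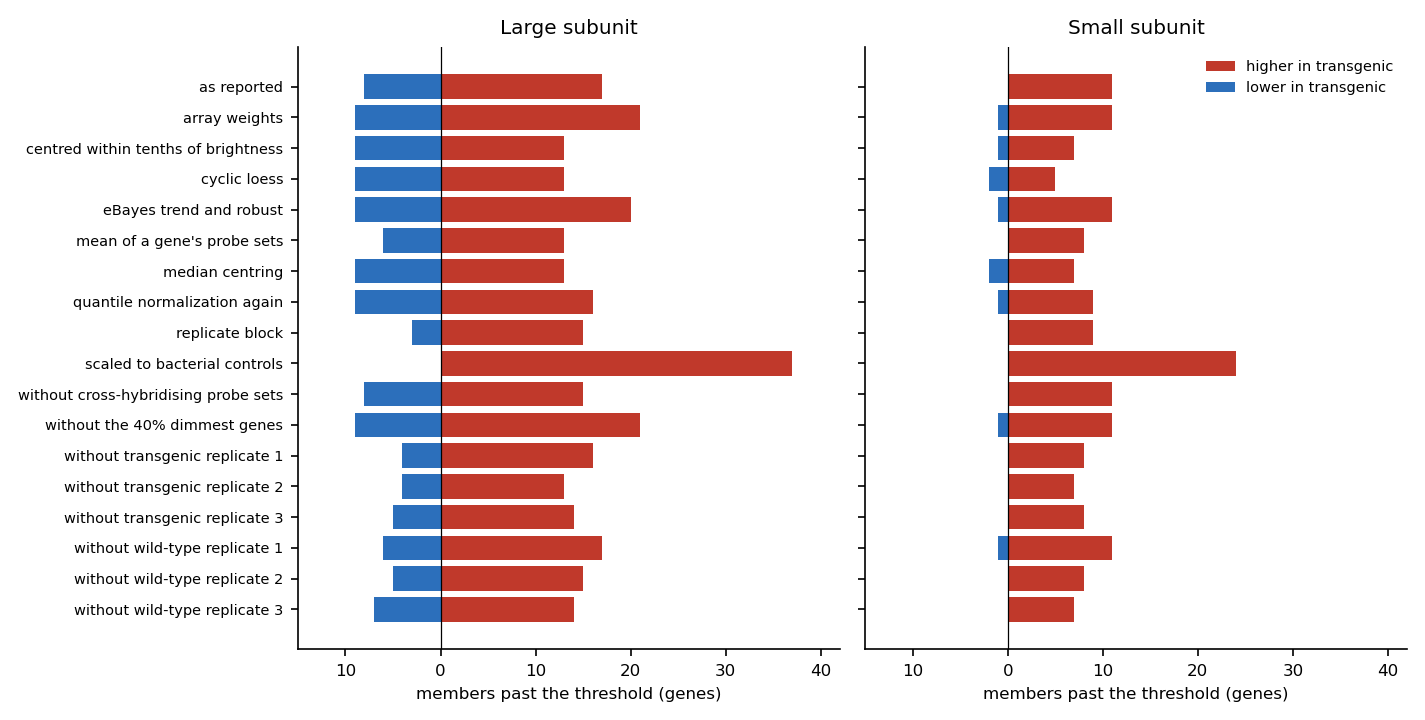
Number of large (left) and small (right) subunit genes called higher (red, to the right of 0) and lower (blue, to the left) in transgenic against wild-type livers as reported and under each other way of processing or with 1 array left out. Small subunit genes called lower number 0 to 2 throughout. Large subunit genes called lower number 3 to 9, except for 0 with the arrays scaled to the bacterial controls.

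Structure gives another split of the family, made here from background knowledge. Of members with a bacterial counterpart, 10 of 28 large subunit genes rose and 6 fell, and 6 of 17 small subunit genes rose and 0 fell. Of those added in mitochondria, 7 of 18 large subunit genes rose and 2 fell, and 4 of 9 small subunit genes rose and 0 fell. The shares of all genes were 19.9% higher and 20.4% lower. In brightness groups 6 to 10, counted from the dimmest, 29.5% of genes were higher and 20.9% lower. Whether any class departed from these shares was not tested. Mrpl55 and Mrps36 were put in neither class. The median difference with a bacterial counterpart and without one was 0.15 and 0.12 in the large subunit, but 0.08 and 0.20 in the small subunit, so the order of the classes was not the same in both. With Mrps18a and Mrps30 counted in the large subunit, where structures place them, and Mrps36 left out, the counts were 18 higher and 8 lower in the large and 9 and 0 in the small subunit.

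Several probe sets read 33 of the 74 genes, up to 7 for Mrpl15, and no gene had probe sets called in both directions. Of the 53 probe sets that did not represent their gene, 6 were called higher and 4 lower. Both probe sets of Mrps23 rose, by 0.70 and 0.80, and both of Mrpl35 fell, by 0.22 and 0.56. Mrpl15 rose on 4 of its 7 probe sets and Mrpl19 on 2 of 3. With a gene's probe sets averaged, the calls of Mrpl1, Mrpl17, Mrpl19, Mrpl38, Mrpl42, Mrpl49, Mrpl51, Mrps11, Mrps14 and Mrps25 were lost. In 4 genes, named here after their values were seen, only a dimmer probe set was called. Mrpl13 read 0.05 on its brightest probe set and rose by 0.33 on another, and Mrps2 fell by 0.37 on its dimmer one. Mrpl11 and Mrpl21 read 0.20 and 0.19 on their brightest probe sets, neither called, but fell by 0.37 and 0.47 on dim ones.

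**Figure D5:**
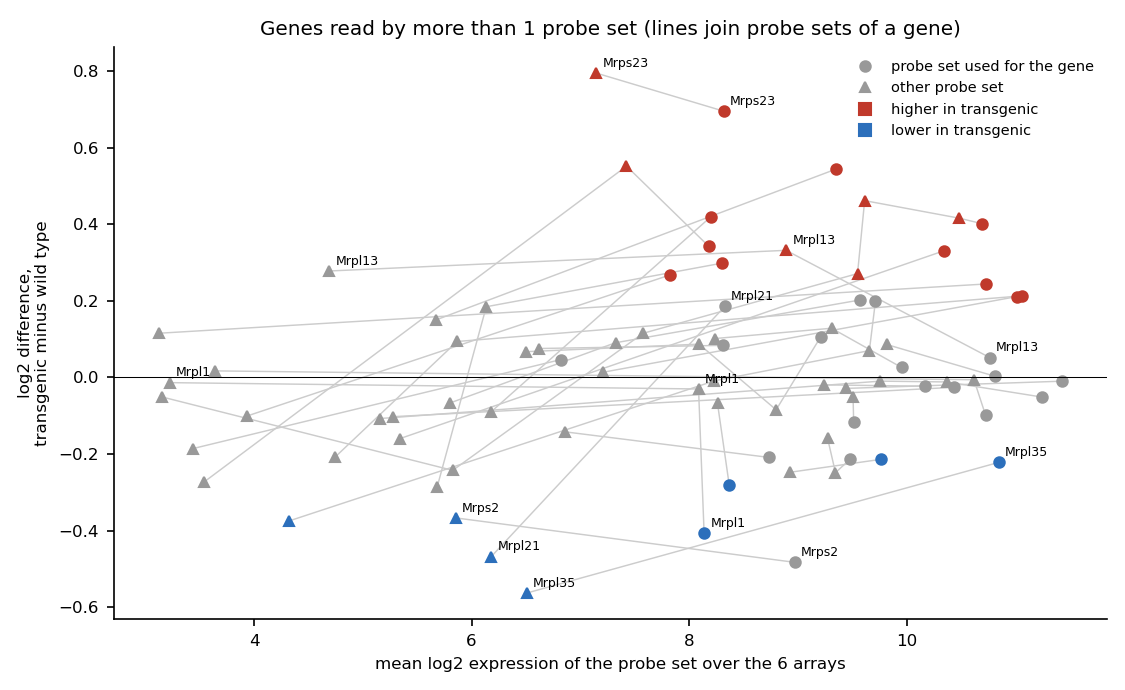
Log2 difference (transgenic minus wild type) against mean log2 expression for the probe sets of the 33 genes read by more than 1, joined by grey lines, with circles for the probe set used and triangles for the others. Red symbols were higher and blue ones lower at an adjusted p of at most 0.05. The symbols run from -0.56 to 0.80, and no line joins a red to a blue symbol.

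With each array left out in turn, 13 of the 17 large subunit rises, 3 of the 8 large subunit falls and 6 of the 11 small subunit rises were called in all 6 fits. The rises called in all 6 were Mrpl15, Mrpl17, Mrpl19, Mrpl20, Mrpl24, Mrpl34, Mrpl36, Mrpl37, Mrpl38, Mrpl40, Mrpl43, Mrpl47 and Mrpl54, and Mrps6, Mrps18a, Mrps18b, Mrps23, Mrps33 and Mrps36. Without transgenic replicate 1, the array with the male pattern, 16 large subunit genes were higher and 4 lower, and 8 small subunit genes were higher and 0 lower. Without transgenic replicate 2 the large subunit counts were 13 and 4, and without transgenic replicate 3 or wild-type replicate 2 the number lower was 5. The small subunit counts were 7 and 0 without transgenic replicate 2 or wild-type replicate 3. Calls over all genes fell too, from 2467 higher and 2523 lower to 2095 and 2067 without transgenic replicate 1. They were 1876 and 1904 without transgenic replicate 2, and 1971 and 1890 without transgenic replicate 3. Without wild-type replicate 2 they were 1957 and 1907, and without wild-type replicate 3 they were 2098 and 2128.

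Other genes of mitochondrial translation are given by list, and no difference between a list and the members was tested. Of 4 measured ribosomal proteins named outside the Mrpl and Mrps scheme, Dap3, a small subunit GTP-binding protein, rose by 0.24 (SE 0.08, adjusted p = 0.0473) and Ptcd3, a small subunit RNA-binding protein, by 0.21 (SE 0.07, adjusted p = 0.0376). Both calls were lost without any one of 5 arrays, leaving 0 of 4 called without transgenic replicate 1, 2 or 3 or wild-type replicate 2 or 3, and that of Ptcd3 also without wild-type replicate 1. With those arrays left out the adjusted p lay between 0.064 and 0.141 for Dap3 and between 0.0511 and 0.124 for Ptcd3. Of 7 measured translation factors limma called 0 in either direction, and 1 was higher and 0 lower at an unadjusted p under 0.05. The peptide deformylase gene Pdf, with -0.19 (SE 0.09), and the initiation factor gene Mtif2, with 0.16 (SE 0.07), differed most.

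Of 18 genes that build and modify the mitoribosome 4 were higher and 3 lower, shares near the 19.9% and 20.4% of all genes. Fastkd2, needed for the large ribosomal RNA, rose by 0.46 (SE 0.08, adjusted p = 0.00347), and C1qbp, a matrix RNA-binding protein, by 0.43 (SE 0.07, adjusted p = 0.00248). Tfb1m, the dimethyltransferase of the small ribosomal RNA, fell by 0.33 (SE 0.07, adjusted p = 0.00674) and Eral1, its chaperone, by 0.30 (SE 0.07, adjusted p = 0.012). Scaled to the bacterial controls, Tfb1m and Eral1 read 0.04 and 0.07 and were not called. Of 11 genes that charge mitochondrial transfer RNAs, 3 were higher and 2 lower. The phenylalanyl-tRNA synthetase Fars2 rose by 0.45 (SE 0.10), and of the 3 subunits of the amidotransferase that makes glutaminyl-tRNA, Qrsl1 rose by 0.40 (SE 0.07) while Gatc and Gatb each fell by 0.35 (SE 0.07 and 0.08) on the deposited scale, where the control scaling gave 0.02 for both.

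Of 22 genes for mitochondrial DNA transcription, replication and RNA processing, 9 were higher and 4 lower. Over all genes the shares were 19.9% and 20.4%. Fastkd1 rose by 0.88 (SE 0.09) and Fastk by 0.59 (SE 0.08), members of a family of mitochondrial RNA-binding proteins. Hsd17b10, a dehydrogenase that is also a subunit of mitochondrial RNase P, fell by 0.71 (SE 0.07), and Top1mt, the mitochondrial topoisomerase, by 0.67 (SE 0.08). Of 11 regulators of mitochondrial biogenesis, 4 were higher and 1 lower. Ppargc1a, the coactivator PGC-1α, read 11.47, 12.06 and 12.02 on the transgenic arrays, against 8.56, 9.15 and 8.77 on the wild-type arrays, a rise of 3.02 (SE 0.20, adjusted p = 3.37e-05). Esrra, the receptor ERRα that works with it, read 8.69, 8.42 and 8.72 on the transgenic arrays, against 7.95, 7.73 and 7.67 on the wild-type arrays, a rise of 0.82 (SE 0.11, adjusted p = 0.000945). Neither gene's groups overlapped. Myc, which activates ribosome and mitochondrial genes, rose by 1.97 (SE 0.19), and the mitochondrial deacetylase Sirt3 fell by 0.35 (SE 0.07) but read 0.02 under the control scaling.

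Respiratory chain and ATP synthase genes encode the nuclear partners of the subunits that the mitoribosome makes. Of 80 such genes 55 were higher and 1 lower, with a median difference of 0.27, led by Cox7a1, a cytochrome oxidase subunit, at 4.18 (SE 0.12) and Ndufs7, of complex I, at 0.73 (SE 0.12), while Cox8c fell by 0.48 (SE 0.09), a call lost under the control scaling. Without transgenic replicate 2 the number higher was 36 and without transgenic replicate 3 it was 37. Cytosolic ribosomal protein genes, which are brighter still, counted 15 of 48 higher and 1 lower, with a median difference of 0.14 like that of the members. Over all genes 19.9% were higher and 20.4% lower, and in the brightest of the 10 brightness groups 32.1% and 29.4%. The cytosolic share higher, 31.25%, was near that of the brightest group, but the share lower, 2.08%, was far below its 29.4%. The cytosolic median of 0.14 also lay above the brightest group's median of 0.06. Rps4l rose by 0.66 (SE 0.19) and Rpl12 by 0.46 (SE 0.14), while Rpl27a fell by 0.27 (SE 0.07) and read 0.10 under the control scaling. All of them read dim for this list, with wild-type means of 9.81 for Rps4l, 7.57 for Rpl12 and 8.70 for Rpl27a. The median level of the list over the 6 arrays was 12.86. The call of Rps4l was lost without transgenic replicate 2 (adjusted p = 0.0761), wild-type replicate 2 (0.0707) or wild-type replicate 3 (0.08), that of Rpl27a without transgenic replicate 2 (0.0599), and that of Rpl12 without any array but wild-type replicate 3 (between 0.066 and 0.0945). The number of cytosolic genes higher was 9 without transgenic replicate 2 and 10 without transgenic replicate 1 or wild-type replicate 2. These lists were compared by counts and medians alone, and the difference between lists was not tested.

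Some members share a start region with a gene on the opposite strand. By RefSeq's annotation, 23 members had such a partner starting within 1000 bases, and 17 of these members had a partner measured on the arrays. Of all genes 19.9% were higher and 20.4% lower. Of the 6 members with a measured partner that rose, 4 had a partner that rose too. Psma2, a proteasome subunit, rose by 0.28 beside Mrpl32, and the histone chaperone gene Hira by 0.52 beside Mrpl40. The complex I gene Ndufb5 rose by 0.32 beside Mrpl47, and the condensin gene Ncapd2 by 0.41 beside Mrpl51. Of the 4 that fell, Mrpl14 lay beside Tmem63b, which fell by 0.25, and Mrpl18 beside the chaperonin gene Tcp1, which rose by 0.65 (SE 0.08). The partners of the other two did not pass. Of the 7 members that were not called, 1 had a partner that rose, 2 had one that fell and 4 had one that did not pass: Pnpla7 fell by 1.48 beside Mrpl41 and Ighmbp2 by 0.28 beside Mrpl21. Whether partners moved together was not tested. Mrpl46 and Mrps11 start back to back, and Mrps11 rose by 0.27 while Mrpl46 read 0.00 (SE 0.06). This pair of members is counted from both sides, among the 6 that rose and among the 7 that were not called.

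Markers of several cell types moved in the same comparison, and their part in the members' differences was not tested. The hepatocyte marker albumin read 14.87 on average in both groups, but 4 of 7 measured hepatocyte markers were lower and 0 higher, and their summed linear level was 110596 to 112131 in transgenic and 126968 to 127598 in wild-type livers. Of 5 cholangiocyte markers 3 were higher (sums 1171 to 1365 and 306 to 799), and of 5 red cell precursor markers 4 were higher (1960 to 2356 and 1246 to 1380). Granulocyte markers were lower in 5 of 6 (2258 to 5185 and 9037 to 19197), and lymphoid markers in 5 of 5 (239 to 304 and 517 to 838). Macrophage markers were lower in 2 of 6 (11228 to 14538 and 13611 to 17513), and stellate cell markers in 3 of 6 (6224 to 6495 and 9415 to 9705). Endothelial markers were lower in 4 of 6 and higher in 1 (3205 to 3532 and 3666 to 3781). Of 5 markers of dividing cells 1 was higher (3728 to 4128 and 3066 to 3722). Over all genes 19.9% were higher and 20.4% lower. In each pair of sums the transgenic range stands first, and among these 9 lists only the macrophage sums overlapped. The macrophage count was 0 of 6 without transgenic replicate 2 or wild-type replicate 2 or 3, and the count for dividing cells was 4 of 5 without wild-type replicate 3 and 0 of 5 without any other array. Myeloid, lymphoid and erythroid cells belong to the blood-forming tissue that the liver still holds at this age.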

How the data were processed

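Total RNA from liver was purified with Trizol and a column kit and labelled as biotinylated cRNA for Affymetrix arrays, per the labels' protocols. The deposited log2 values were made by the authors with affy and RMA, per the submitters' processing notes, where no version is stated. RMA equalises the arrays, so it hides any change in the total RNA of a cell. The table holds 22690 probe sets: 64 array controls, 20380 paired with 1 gene, 691 with several and 1555 with none by the platform annotation. Symbols were checked by Entrez identifier against a RefSeq table (GRCm38.p6): 20351 matched, 29 kept the platform symbol and 0 changed. A fit of transgenic against wild type in limma 3.58.1 (two-sided, lmFit then eBayes, without covariates) under R 4.3.3 covered 12393 genes, 1 probe set each, and summaries were made in Python 3.11.15. With 3 arrays a side an exact permutation test reaches p = 0.1 at best, so none was run.

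Members, gene lists, markers and structural classes were chosen with earlier results of these data known. Members are given with all arrays where they are among the 6 largest rises or falls of their subunit past the threshold on non-overlapping groups, or its brightest or dimmest gene. Other called members are given by their difference, the rest by count and range, except where stated. From each other list up to 2 rises and 2 falls, or the 2 largest differences, are named, besides Ppargc1a, Esrra and Tfeb. The promoter and motif letters come from RefSeq windows; protein sequences are not used here. Alternatives were other probe set choices, normalizations, filters, variance models, a block for the replicate number and fits that leave 1 array out. Deviations of same-numbered arrays correlated at -0.10, -0.02 and 0.06, and those of differently numbered arrays at -0.14 to 0.12. With so few arrays this cannot tell whether the numbers pair the animals, and the reported fit treats them as unpaired. Data were also simulated over 12393 genes, of which 200 were changed. There limma recovered 49% of changes of 0.5 and 88% of changes of 1, with 9 false calls. On the real arrays 40.3% of genes were called, and the adjustment depends on that share, so these rates cannot be carried over to this comparison.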

Additional observations from a re-analysis of the deposited data

Results flagged for a closer look

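The probe set shared by Mrpl30 and Gm6238 was left out of the comparison because its annotation names several genes. It read 10.93, 10.98 and 10.89 on the transgenic arrays, against 10.78, 10.86 and 10.77 on the wild-type arrays, so that every transgenic array was above every wild-type array, with a difference of 0.13. It drew attention as a signal outside the probe sets compared, and which of the 2 genes it reads was not tested.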

How the results depend on the processing

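The results depended most on the scale. Scaled to the bacterial controls, the median of all genes was 0.33, with 7010 genes higher and 651 lower (91.5% of calls higher, against 49.4% as reported). The large subunit then counted 37 higher and 0 lower with a median of 0.51, and the small subunit 24 higher with a median of 0.51. Mrpl23 (0.010), Mrpl18 (0.079), Mrpl49 (0.091), Mrpl27 (0.12), Mrpl39 (0.36), Mrpl35 (0.15), Mrpl48 (0.16), Pdf (0.18), Tfb1m (0.037), Eral1 (0.067), Gatc (0.021), Gatb (0.021), Sirt3 (0.018), Rpl27a (0.10) and Tfeb (0.16) turned positive. Under median centring there were 1942 rises and 3577 falls (35.2% of calls higher) around a median of -0.11, the subunit medians were 0.072 and 0.064, and small subunit genes counted 7 higher and 2 lower, with Mrpl33 at -0.024. Centring within brightness groups gave a median of -0.0028 over all genes, 0.087 for the large and 0.054 for the small subunit, with 7 small subunit genes higher and 1 lower. Cyclic loess gave -0.023, 0.055 and 0.045, with 5 higher and 2 lower. Quantile normalization again gave -0.0059 over all genes, 0.077 for the small subunit with 1 lower, and 0.016 for Mrpl39. Averaging a gene's probe sets gave medians of -0.048, 0.085 and 0.080, with Mrpl33 at -0.069. On every probe set alone 3801 were higher, the medians were 0.022 and 0.084, and 1 small subunit probe set was lower. Without cross-hybridising probe sets Mrpl38 read -0.091. Leaving out the 40% dimmest genes gave an overall median of 0.057, with 2338 higher and 1660 lower (58.5% higher), and 1 small subunit gene lower, as with array weights and with eBayes trend and robust options. With subunits by structure the small subunit median was 0.095.

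With 1 array left out, large subunit genes lower numbered 4 to 7 and their median was 0.098 to 0.19. Small subunit genes higher numbered 7 to 11, those lower 0 to 1, and their median was 0.11 to 0.16. Over all genes 1876 to 2411 were higher and 1890 to 2407 lower in these fits. Mrpl39 read -0.036 to 0.022. With the replicate number as a block, 3 large subunit genes were lower, and over all genes 2168 were lower, against 2523 as reported. Of the members called, 10 of 17 large subunit rises, 0 of 8 falls and 5 of 11 small subunit rises were called under every alternative that keeps 1 value per gene and measures the gene, which is 17 of them, or 16 for Mrpl37, left unmeasured without cross-hybridising probe sets. Scaling to the controls adds 0.37 to every difference by construction; the cause of the other shifts was not tested.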

Other observations

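The 2 other probe sets shared by a mitochondrial ribosomal protein gene and another gene did not behave alike. That of Mrps34 and Nme3 read 8.18, 8.10 and 7.99 on the transgenic arrays, against 8.44, 8.51 and 8.36 on the wild-type arrays, a difference of -0.34 with groups that did not overlap. The probe set that reads Mrps34 alone gave 10.56 ± 0.01 in transgenic and 10.51 ± 0.04 in wild-type livers (SD, n = 3 each), a difference of 0.05. That of Mrpl53 and Ccdc142 read 10.08, 10.10 and 9.999 on the transgenic arrays and 9.96, 10.14 and 10.03 on the wild-type arrays, which overlapped.

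The family also spanned a wide range of brightness between genes of the same complex, with means from 6.82 for Mrpl33 to 11.43 for Mrpl39 in the large subunit and from 7.82 for Mrps11 to 11.01 for Mrps14 in the small subunit. Probe sets differ in how strongly they bind, so these levels do not rank the transcripts. The largest differences lay at intermediate brightness, at 8.96 for Mrps6 and 8.87 for Mrpl36.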
